A study of Homo sapiens with 18 samples.

Results

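Axon guidance ligands and receptors were examined as 63 of the 19111 protein-coding genes that GENCODE annotates on chromosomes 1 to 22 of the hg38 genome. They were taken by gene symbol and comprised 34 ligands (20 semaphorins, 7 ephrins, 3 SLIT genes and 4 netrins) and 29 receptors (7 plexins, 14 EPH receptors, 4 ROBO genes and 4 UNC5 genes). Peaks were assigned to a gene when they shared at least 1 bp with its body or the 10 kb on either side. The libraries were ChIP-seq of HEK293T, an established cell line derived from embryonic kidney, against H3K27ac, a histone acetylation of active promoters and enhancers, and against CTCF, a zinc finger protein that binds at loop anchors and insulators. The treated cells (VPA) had been exposed to valproic acid, which blocks histone deacetylases, at 1 mM for 1 day, and the others (CTRL) had no treatment. Each of the 4 combinations of antibody and treatment had 3 replicates, and the 6 input samples were not analysed here. The labels do not say whether replicates came from separate cultures, so the p-values below measure only the spread between these libraries, which may be technical.

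Guidance cues steer growing axons and many other migrating cells by attraction or repulsion. Semaphorins signal through plexins, ephrins bind EPH receptors on neighbouring cells, SLIT proteins repel through ROBO receptors, and netrins attract or repel depending on the receptor, UNC5 proteins mediating repulsion. Many of these genes are active in embryonic kidney and other epithelia as well as in neurons.

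The number of peaks per H3K27ac list ranged from 26299 to 29799 under CTRL and from 38441 to 40992 under VPA, and CTCF lists ranged from 36469 to 58782. Read totals are unknown, but the background coverage derived from the peaks lay between 3.51 and 3.95 fragments in all 12 libraries. The replicate 1 libraries stood apart, with 21.5% to 32.2% of their peaks at that background against 3.5% to 13.7% elsewhere, and H3K27ac CTRL replicate 1 had a median local background of 22.3 fragments against 8.82 to 9.94 in the other 5. The cell label was checked at gene starts: 6 of 7 markers of the HEK293 lineage, PAX2 among them, had an H3K27ac peak in all 6 libraries, HOXD10 had none, and 9 of 12 markers of other cell types had none. Of the other 3, COL1A1 had one in 2 CTRL and 3 VPA libraries, MYOD1 in 2 VPA libraries alone and APOA1 in 1 VPA library alone.

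The guidance genes had more H3K27ac peaks in the VPA lists, which were longer as a whole. Their windows held 175, 225 and 222 peaks across the CTRL libraries against 231, 297 and 276 under VPA. All VPA libraries were above all CTRL libraries, with means of 207.3 ± 28.0 and 268 ± 33.7 (SD, n = 3 each), a ratio of 1.29. The exact two-sided permutation test gave p = 0.1, the smallest that 3 against 3 libraries allow. As whole lists grew by a ratio of 1.40, H3K27ac peaks lying in these windows made up 0.724% ± 0.0510 of the CTRL lists against 0.667% ± 0.0623 of the VPA lists (exact p = 0.3). With every list cut to the length of the shortest, the difference turned to -12.7 peaks. The kilobases covered by H3K27ac peaks in the windows were 266.6 ± 57.4 in CTRL and 372.9 ± 93.5 in VPA, with overlapping groups (exact p = 0.3).

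Ligands and receptors were then taken apart. Ligand windows held 108, 128 and 121 peaks without treatment against 140, 172 and 168 with VPA, so the groups did not overlap (ratio 1.34, exact p = 0.1). Receptor windows held 67, 97 and 101 against 91, 125 and 108, with overlap (ratio 1.22, exact p = 0.3). Whether ligands and receptors differed in this change was not tested. The 20 semaphorins had the highest ratio, 1.41 (67.7 ± 7.57 to 95.3 ± 12.9 peaks), and the 7 plexins were at 1.00 (21.3 ± 1.53 and 21.3 ± 2.52). The ratios of the other families lay between 1.19 for the SLIT genes and 1.32 for the ephrins. Whole H3K27ac lists grew by a ratio of 1.40. That is near the semaphorin ratio and above those of the ligands, the receptors and every other family.

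At the level of single genes, 7 of the 63 had more H3K27ac peaks in every VPA library than in any CTRL library, where 10.2% of all genes did, and 0 had fewer, where 0.147% of all genes did. The median window was 89.1 kb for the 63 genes and 47.9 kb for all genes. By window length, this was 3 of 21 genes under 50 kb (6.48% of all such genes), 1 of 14 from 50 to 150 kb (13.9%) and 3 of 28 above 150 kb (15.2%). The 7 genes were all ligands: SEMA3A, SEMA3C, SEMA4B, SEMA6C, EFNA3, EFNA5 and NTN5. Because same-numbered H3K27ac libraries deviated together, the comparison was also made within replicate numbers: 15 genes were higher in VPA in each of the 3 numbers (16.2% of all genes) and 1, PLXNA2, was lower (0.309% of all genes). The 8 genes this added were EPHA2, EPHB4, ROBO1, ROBO2, SEMA3B, SEMA6B, SLIT2 and UNC5C. Without VPA replicate 1, 21 genes had more peaks in VPA, where 19.7% of all genes did. Neither the 16.2% nor the 19.7% is matched for window length, so no enrichment can be read from them.

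**Figure D1:**
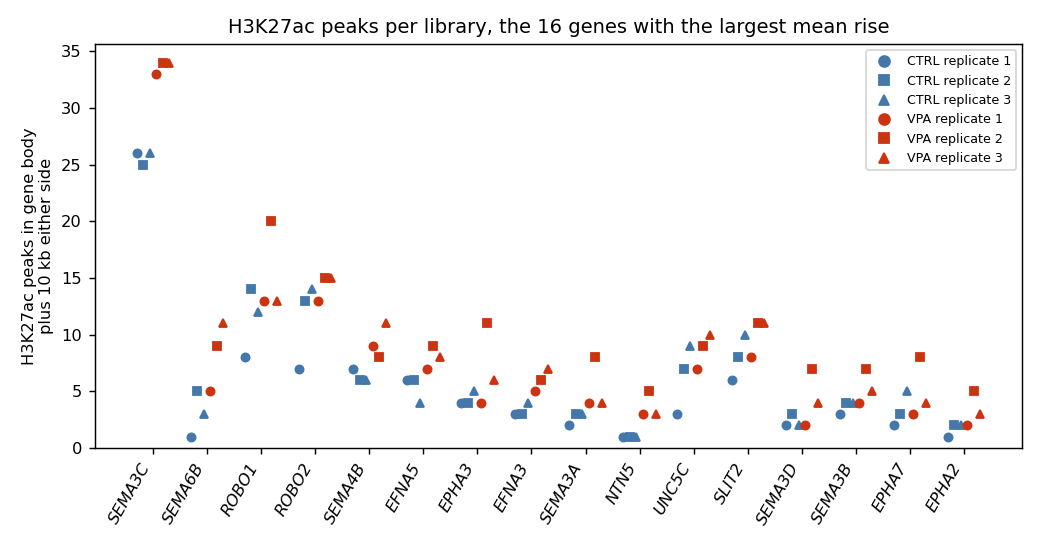
H3K27ac peaks in the gene body plus 10 kb either side (y axis, number of peaks) for the 16 genes with the largest mean rise (x axis), one point per library, CTRL in blue and VPA in red, with shapes for replicate numbers. SEMA3C stands highest, with 25 to 26 peaks in CTRL and 33 to 34 in VPA.

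SEMA3C, a secreted semaphorin, carried the most H3K27ac peaks of all 63 genes. Its window held 26, 25 and 26 peaks under CTRL against 33, 34 and 34 under VPA, and the peaks covered 18.9, 24.9 and 24.4 kb against 36.1, 61.8 and 40.3 kb. Both measures separated the groups without overlap. The peaks formed 39 regions when merged over libraries, nearly all inside the 179.8 kb gene body, and 25 regions were found in more VPA than CTRL libraries while 1 was found in fewer. The VPA lists were longer as a whole, and several of the 25 had a peak in 1 VPA library alone. Over all 55382 H3K27ac regions, 14375 had that pattern, while 2445 were in 1 CTRL library alone. With lists cut to equal length, the difference in peak number turned to -1.33. The regions were therefore also examined by summit level, here the number of fragments at a peak's summit recovered from its deposited values, divided by the background coverage of its library (1 added to each). Of the 13 SEMA3C regions with a peak in all 6 libraries, 6 had a higher summit level in every VPA than in any CTRL library. The share of all regions with that order was not computed, so whether this count stands out is not known. An intronic region 138.3 kb from the start site went from 10.2, 10.4 and 9.76 to 23.3, 19.8 and 16.1. Another, 85.8 kb from the start, went from 17.3, 17.9 and 15.3 to 24.6, 24.8 and 29.0. The region at the start site itself had 51.0, 42.6 and 41.3 in CTRL and 35.5, 30.3 and 30.9 in VPA. It was the only one of the 13 to be lower in all VPA libraries, but its difference of -0.25 on the log2 scale, after median subtraction, did not pass the test described below (adjusted p = 0.0702, limma).

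**Figure D2:**
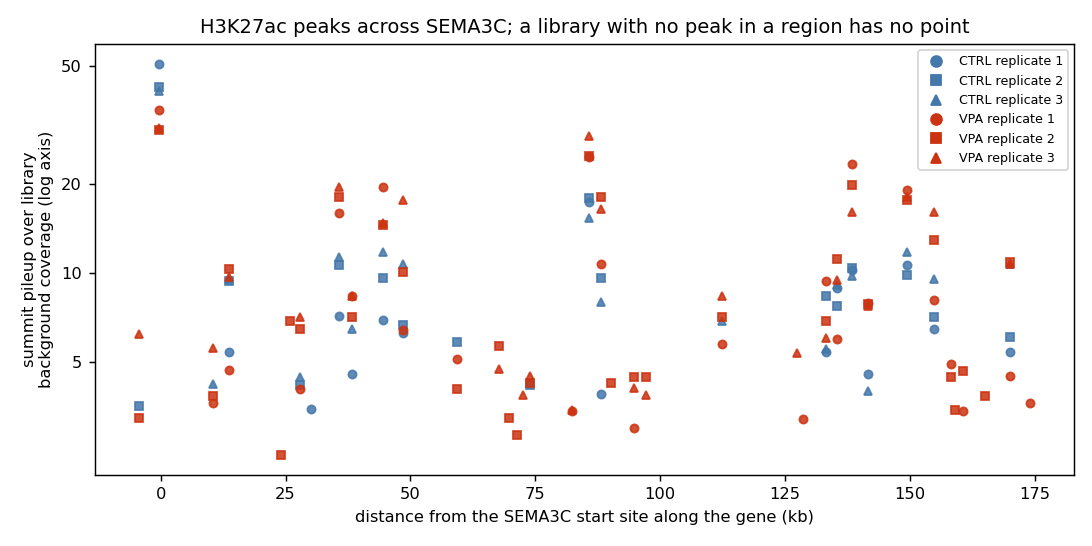
H3K27ac summit level (y axis, log scale, fragments over library background coverage) of each region of SEMA3C against its distance from the start site in kb (x axis), one point per library with a peak. The start region has its 3 CTRL points (41.3 to 51.0) above its VPA points (30.3 to 35.5), while 6 of the regions inside the gene show the reverse order without overlap. The share of all regions with that reverse order was not computed.

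Among the other semaphorins, SEMA4B, a transmembrane member, had 7, 6 and 6 peaks under CTRL against 9, 8 and 11 under VPA. SEMA3A, a secreted repellent acting through neuropilins and plexins, had 2, 3 and 3 against 4, 8 and 4. SEMA6C had a single peak in each CTRL library and 2, 3 and 2 in VPA. The windows of the shorter genes hold neighbouring genes as well: within the gene body, the SEMA6C counts overlapped (1, 1 and 1 against 1, 2 and 1), as did those of SEMA4B (5, 4 and 4 against 7, 5 and 6), whereas those of SEMA3A did not change with the window. SEMA6B, a transmembrane ligand of plexins, missed separation by a tie at 5 peaks (1, 5 and 3 against 5, 9 and 11), but its body held 1, 3 and 2 peaks against 4, 5 and 8. The peaks in its window covered 0.316, 2.43 and 1.87 kb under CTRL against 3.42, 14.0 and 12.9 kb under VPA. In all, 14 of the 63 genes had more kilobases covered in every VPA than in any CTRL library, where 26.5% of all genes did, and 0 had fewer, where 0.157% did. SEMA5A had no H3K27ac peak in any library.

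The ephrins are membrane-bound ligands of EPH receptors. EFNA5 had 6, 6 and 4 H3K27ac peaks without treatment against 7, 9 and 8 with VPA, all within its gene body. EFNA3 had 3, 3 and 4 in CTRL and 5, 6 and 7 in VPA, but its body held 2 peaks in every library, so the difference lay in the flanks, which it shares in part with EFNA4. Of the netrins, NTN5 had 1 peak in each CTRL library and 3, 5 and 3 in VPA, again mostly outside the body (1, 1 and 1 against 1, 2 and 1). NTN1, a bifunctional cue, had 5 peaks in every library but VPA replicate 3, which had 6. SLIT2 had 6, 8 and 10 peaks against 8, 11 and 11, with overlap. SLIT3 had 8, 7 and 4 against 8, 5 and 6.

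The receptors with the most H3K27ac peaks were the SLIT receptors ROBO1 and ROBO2. ROBO1 had 8, 14 and 12 peaks against 13, 20 and 13, and ROBO2 had 7, 13 and 14 against 13, 15 and 15. Both were lowest in CTRL replicate 1, and their groups overlapped. UNC5C, a netrin receptor of the repulsive branch, had 3, 7 and 9 against 7, 9 and 10. The plexin PLXNA2 had 5, 2 and 4 peaks against 4, 1 and 3, lower within each replicate number but overlapping as groups. UNC5D had no H3K27ac peak in any library, and EPHA8 had a single peak in CTRL replicate 3.

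**Figure D3:**
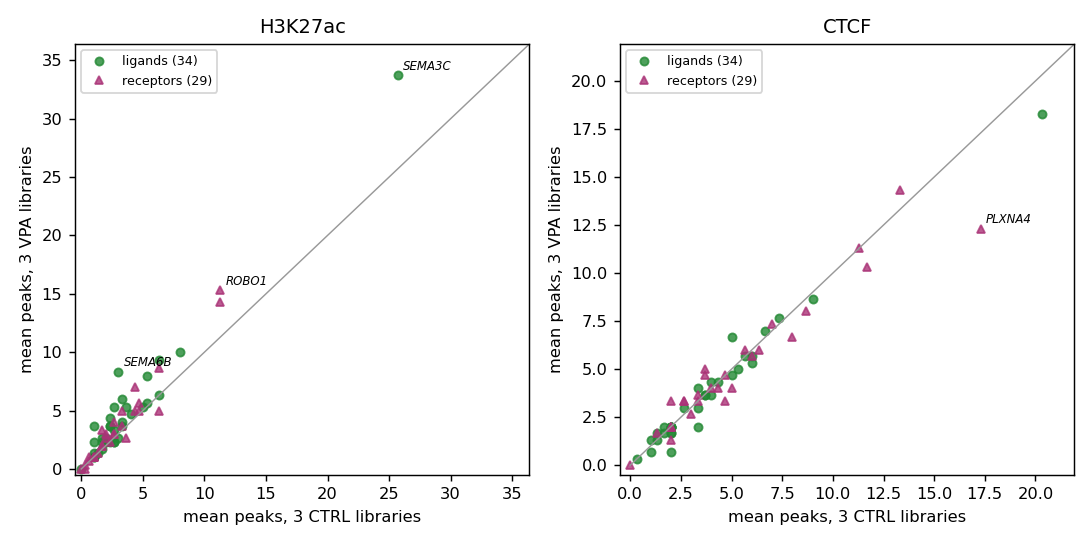
Mean number of peaks over 3 CTRL libraries (x axis) against the mean over 3 VPA libraries (y axis) for each gene, ligands as green circles and receptors as purple triangles, H3K27ac on the left and CTCF on the right, with the line of equality. For H3K27ac 42 genes lie above the line (66.7%, against 54.2% of all genes) and 6 below it (1502 of all 19111 genes). For CTCF 19 lie above (30.2%, against 19.0% of all genes) and 24 below (7197 of all 19111 genes). Genes whose means differ by 4 or more are named.

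Few regions were limited to VPA. When the peaks of all 6 libraries were merged, the windows held 380 H3K27ac regions, and 7 of them were present in each VPA and no CTRL library, where 4.12% of all regions did, and 0 showed the reverse, where 0.139% did. The 7 regions fell in the windows of 7 genes, where 9.19% of all genes had such a region in their window. They lay in introns of SEMA3C, ROBO1, ROBO2 and SLIT1 and between genes in the windows of SEMA6C, EFNA3 and NTN5. The SEMA6C one had its summit 0.689 kb from the start of TNFAIP8L2, a neighbouring gene. It was the strongest, with a mean rank by q-value within the lists at percentile 53.2 (summit levels of 10.7, 13.9 and 10.1 in VPA). The one in SEMA3C was among the weakest, at percentile 21.5 (2.99, 4.44 and 4.08). In 3 of the 7 (SEMA6C, EFNA3 and SLIT1) the region shared bases with a CTCF region found in all 6 CTCF libraries, as did 24.7% of all H3K27ac regions only in VPA.

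The 100 bases around the summit, on the plus strand of hg38, are given for the region in SEMA3C, the gene with the most peaks. The middle 20 bases occurred once on the autosomes for 5 of the 7 regions, but 179 times for the SEMA6C region and 16963 times for the ROBO1 region, where aligned fragments are therefore less certain in position. What part this had in the calls was not tested.
SEMA3C intron, chr7:80824324-80824423: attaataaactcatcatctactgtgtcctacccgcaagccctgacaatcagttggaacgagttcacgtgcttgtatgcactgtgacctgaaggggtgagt
It holds neither the AP-1 motif TGANTCA nor the TEAD motif GGAATG on either strand, nor do the windows of the other 6 regions, and across all 55382 H3K27ac regions 2.36% and 4.10% of such windows do.

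At gene starts, the number of guidance genes with H3K27ac did not separate the treatments, while the level at some starts did. An H3K27ac peak within 1 kb of the start of the canonical transcript was found for 47, 54 and 52 genes in CTRL and 48, 54 and 51 in VPA (means of 51.0 ± 3.61 and 51.0 ± 3.00, exact p = 1). In all 6 libraries 46 of the 63 had one (73.0%, against 61.0% of all genes), and 8 had none in any library: SEMA4A, SEMA5A, SEMA6B, NTN5, EPHA1, EPHA10, ROBO4 and UNC5D. The receptor ROBO2 had the strongest start under CTRL after SEMA4C, with summit levels of 216.5, 164.9 and 151.4, which were 98.1, 58.2 and 63.3 under VPA. SEMA4C went from 234.0, 191.6 and 185.1 to 142.2, 101.6 and 110.7. All VPA values lay below all CTRL values in both, although SEMA4C passed the test below on the summit level alone.

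The levels of regions with a peak in all 6 libraries were compared with limma, an across-region linear model, after each library's median was subtracted. The windows held 121 such regions of 18407. On the deposited fold enrichment, 0 regions passed an adjusted p of 0.05 in either direction, over the guidance genes or over all regions (0% of all called higher and 0% lower). At an unadjusted p under 0.05, 3 of the 121 were higher and 9 lower (383 and 1091 over all regions). With the replicate number as a block, 16 of the 121 were called higher, where 6.45% of all regions were, and 11 lower, where 8.57% were. On the summit level, an alternative measure that does not use the local background, 20 were called higher (11.9% of all) and 25 lower (27.1% of all). Without subtraction of the medians these were 9 and 19 (774 and 2406 over all 18407 regions). That subtraction moved the median over all regions from -0.27 to -0.04 on the log2 scale. Called in the same direction by both the blocked fit and the summit level were 11 higher regions (4.42% of all) and 10 lower ones (7.83% of all). These 21, selected after their values were seen, are described next. All kept their sign in the fold-enrichment fits without any one library, and the difference of 10 moved by over 1.5 times in at least 1 of those fits. Without subtraction of the medians, 18 of the 21 were still called on the summit level and 3 (EFNA3/EFNA4, EPHB3 and NTN5) were not.

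The calls at start sites were mostly lower and those elsewhere mostly higher, relative to the median of each library. Start sites here are the canonical starts of any protein-coding gene, so some of these regions lie at neighbours such as TMA7 and CIRBP. Of the 60 regions reaching within 1 kb of such a start, 8 were called higher on the summit level (7.25% of all such regions) and 20 lower (40.8% of all). Their median log2 difference was -0.14. Of the 61 others, 12 were called higher (17.7% of all) and 5 lower (10.0% of all), with a median of 0.24. The same contrast ran through all regions, with medians of -0.19 and 0.22, so it was not particular to the guidance genes. Without subtraction of the medians the calls at start sites were 1 higher and 14 lower (77 and 1812 of all 10228 such regions). Elsewhere they were 8 and 5 (697 and 594 of all 8179). The medians were then -0.37 and 0.01 (-0.41 and -0.01 over all regions), so regions elsewhere were centred near 0. Whether start sites and other regions differed was not tested.

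**Figure D4:**
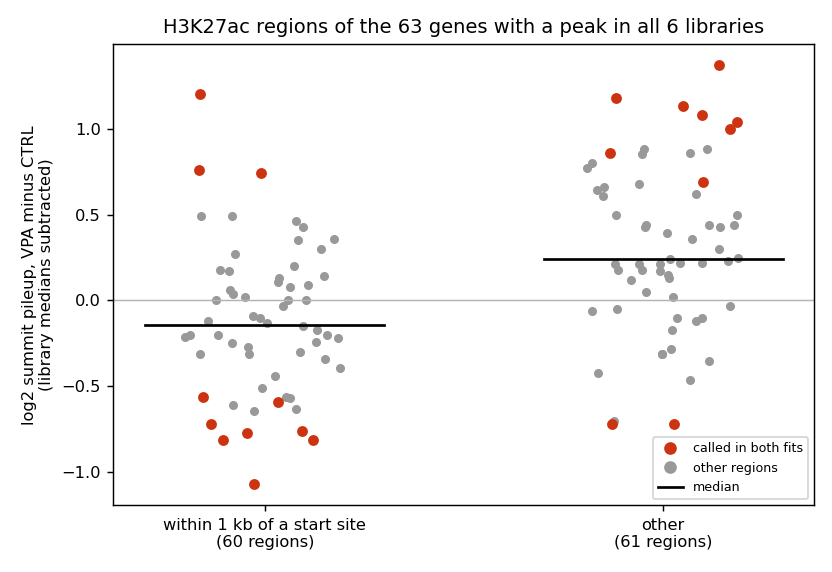
Log2 summit level, VPA minus CTRL (y axis), of the 121 H3K27ac regions with a peak in all 6 libraries. They are split by whether the region lies within 1 kb of the start of any protein-coding gene (x axis). Red points are the 21 regions called in both fits, grey points the others and black lines the medians of -0.14 and 0.24 after subtraction of library medians (-0.37 and 0.01 without it).

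Of the 60 start-site regions 8 fell in both fits (13.3%), where 11.2% of all start-site regions did, a share near the background. They belonged to ROBO2, SLIT2, EPHA7, EPHA4, EFNA5, EFNB2, SEMA6A and SEMA6D. ROBO2 (chr3:77038332-77043066) fell by 0.94 on the log2 fold-enrichment scale (SE 0.18 and adjusted p = 0.00414 in limma with the replicate block) and by 1.07 on the summit level (SE 0.09). The rank of its peak within each list was at percentiles 96.4, 96.6 and 96.6 in CTRL and 89.5, 86.9 and 90.0 in VPA. SLIT2 (chr4:20249914-20257457), the repellent bound by ROBO receptors, had summit levels of 181.3, 133.8 and 119.6 in CTRL and 97.3, 64.0 and 65.2 in VPA, and fell by 1.04 in log2 fold enrichment (SE 0.18, adjusted p = 0.00249, limma with the block). EPHA7 had 197.5, 144.6 and 134.7 against 101.1, 66.4 and 71.9. EFNA5, whose number of peaks rose, had 179.8, 127.1 and 116.7 against 85.3, 62.2 and 64.4 at its start. In each of the 8 the VPA values lay below all CTRL values, and the log2 summit level fell by 0.56 (SEMA6A) to 1.07 (ROBO2). As the 8 were selected in part on this level, that separation is no separate evidence. Replicate 1 had the highest level within both treatments at all 8. The log2 fold enrichment difference shrank to -0.38 for EFNB2 without VPA replicate 1 (from -0.65), to -0.36 for EPHA4 without CTRL replicate 2 (from -0.59) and to -0.43 for SEMA6A without CTRL replicate 3 (from -0.65).

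Higher in both fits were 3 of the 60 start-site regions (5.0%), where 1.67% of all start-site regions were. SEMA3B (chr3:50263089-50268289), a secreted semaphorin, had the largest change there, from 33.5, 29.2 and 26.2 to 69.3, 51.1 and 54.9 in a region whose summit lay 4.72 kb from its start. Its log2 fold enrichment was 1.02 higher (SE 0.23 and adjusted p = 0.00818 in limma with the block). A peak reaching within 1 kb of the SEMA3B start itself was found in 1 CTRL library (29.2 in replicate 2). The 3 VPA libraries had one each, at 37.8, 31.5 and 54.9. EFNA3 (chr1:155077778-155083023), in a region that also lies in the EFNA4 window, went from 47.3, 50.3 and 56.1 to 85.1, 67.5 and 69.7. Its call was lost without subtraction of the medians (adjusted p = 0.0846, limma), and its log2 fold enrichment difference of 0.67 was 0.25 without CTRL replicate 1. The EPH receptor EPHB3 (chr3:184560955-184562808) had 16, 14.4 and 14.0 in CTRL and 27.4, 18.0 and 18.9 in VPA, and its call was likewise lost (adjusted p = 0.0857, limma).

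**Figure D5:**
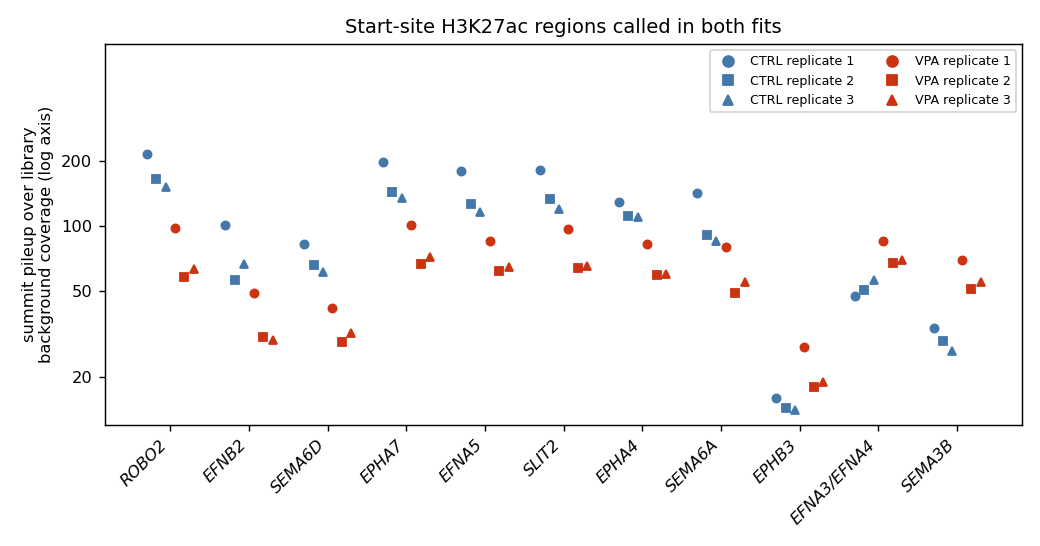
H3K27ac summit level (y axis, log scale) per library at the 11 start-site regions called in both fits (x axis, ordered by change), CTRL in blue and VPA in red. The VPA points lie below the CTRL points for the 8 genes on the left and above them for EPHB3, EFNA3/EFNA4 and SEMA3B, of which SEMA3B alone was called without subtraction of the medians. The regions were selected in part on this level.

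Away from start sites, 8 of 61 regions were higher in both fits (13.1%, where 7.85% of all such regions were): 6 in introns of SEMA3C, 1 in an intron of SEMA4B and 1 at NTN5. The SEMA4B region, 26.2 kb from the start, went from 12.1, 11.1 and 8.43 to 19.5, 20.0 and 16.9, and its log2 fold enrichment difference of 0.92 was 0.57 without CTRL replicate 2 or VPA replicate 1 and 1.48 without CTRL replicate 1. The NTN5 region, in an exon 11.6 kb from the start, went from 18.4, 22.1 and 23.5 to 30.1, 27.9 and 29.8, a call lost without subtraction of the medians (adjusted p = 0.0925, limma). In SEMA3C the log2 summit level was 0.86 to 1.37 higher, and the log2 fold enrichment difference of 0.84 to 1.17 spanned 0.42 (without VPA replicate 1) to 1.93 (without CTRL replicate 1) over the fits without a library, with CTRL replicate 2 and VPA replicate 3 also moving single regions by over 1.5 times. The 2 lower regions (3.28%, where 3.67% of all such regions were) belonged to receptors. A ROBO1 region (chr3:79015343-79020966), in an exon 748.8 kb from the canonical start, had 236.4, 182.6 and 172.9 in CTRL and 129.1, 82.4 and 98.0 in VPA. Only canonical starts were used, and whether another ROBO1 transcript starts there was not examined. UNC5B, a netrin receptor, had an intronic region 22.9 kb from its start with 92.0, 86.2 and 83.2 against 52.8, 40.8 and 42.7. The ROBO1 region was thus the strongest of the gene and fell, while the gene's number of peaks was higher within each replicate number.

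The promoters of 3 start sites are shown because their calls had opposite directions, SLIT2 and EFNA5 lower and EPHB3 higher (the last after subtraction of the medians). The 150 bases before the start come from RefSeq promoters (GRCh38.p14), 5′ to 3′ on the strand of the gene, with CG dinucleotides in capitals.
SLIT2, chr4:20251755-20251904, plus strand: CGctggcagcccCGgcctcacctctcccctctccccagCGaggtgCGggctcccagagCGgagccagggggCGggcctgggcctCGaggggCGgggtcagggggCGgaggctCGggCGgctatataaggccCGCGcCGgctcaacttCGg
EFNA5, chr5:107670938-107671087, minus strand: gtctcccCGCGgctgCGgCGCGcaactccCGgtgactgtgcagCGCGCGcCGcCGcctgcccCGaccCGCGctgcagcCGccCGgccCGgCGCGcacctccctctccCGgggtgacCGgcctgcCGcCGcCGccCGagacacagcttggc
EPHB3, chr3:184561635-184561784, plus strand: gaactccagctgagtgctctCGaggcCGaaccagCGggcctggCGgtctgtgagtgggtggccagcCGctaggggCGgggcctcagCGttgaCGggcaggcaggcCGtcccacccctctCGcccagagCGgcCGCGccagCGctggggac
Over the 300 bases of the RefSeq window, SLIT2 held 36 CG dinucleotides, EFNA5 47 and EPHB3 26, and 18.3%, 3.48% and 44% of all 13349 promoters held at least as many. RefSeq windows starting within 1 kb of the canonical start were found for 43 of the 63 genes, with a median of 26.0 against 23 over all genes. The 34 with a start-site peak in all 6 libraries had a median of 25.5 (range 6 to 54) and the 4 with none had 19.0 (range 11 to 39), so the ranges overlapped. Among genes with a start region lower in both fits, 4 had such a window, with a median of 41.5 (range 24 to 49). Of these, EPHA7 held 24, fewer than EPHB3, while EFNA3, higher in both fits, held 28. Whether CG content went with the direction of change was not tested.

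For CTCF, the totals over the guidance genes did not separate the treatments. Their windows held 233, 315 and 300 peaks against 220, 292 and 309 (282.7 ± 43.7 and 273.7 ± 47.2, exact p = 0.6), and the lowest library of each treatment was replicate 1. The sign of this difference turned without CTRL replicate 2 (7.17) or VPA replicate 1 (17.8). SLIT3 had the most CTCF peaks, 15, 23 and 23 against 12, 21 and 22, followed by PLXNA4, ROBO2, ROBO1 and PLXNA2. EPHA8 had none in any library. At gene starts, 31 of the 63 had a CTCF peak in all 6 libraries (49.2%, against 24.9% of all genes), and 33, 41 and 35 had one in the CTRL and 34, 38 and 36 in the VPA libraries. The change in peak number over all windows was 0.42 higher on the log2 scale for H3K27ac than for CTCF, which the exact permutation test over 400 assignments did not separate from 0 (p = 0.11).

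One gene of the 63, EPHA7, had more CTCF peaks in every VPA than in any CTRL library (0.351% of all genes), with 2, 2 and 2 against 4, 3 and 3. Its peaks fell in only 2 merged regions, 1.01 kb inside and 4.22 kb before its start, so some held more than 1 peak in a library. The summit levels were not higher throughout. Inside the gene they were 40.6, 19.9 and 18.4 in CTRL and 43.1, 15.4 and 15.3 in VPA. Before the start they were 56.4 and 55.4 in CTRL replicates 2 and 3, with no peak in replicate 1, and 9.18, 6.41 and 53.8 in VPA. One gene, the plexin PLXNA4, had fewer (0.774% of all genes), with 17, 18 and 17 against 6, 16 and 15. VPA replicate 1 stood far below the rest there, and 14 of the 23 PLXNA4 regions were found in fewer VPA than CTRL libraries. These were mainly in 3 CTRL and 2 VPA libraries or in 1 CTRL library alone, patterns that 5915 and 5925 of all 69985 CTCF regions had. By covered kilobases 0 genes had more (1.11% of all genes) and 2 had less, EFNA5 and SEMA4D (1.64% of all genes). On the fold enrichment of the 166 CTCF regions with a peak in all 6 libraries, limma called 0 higher (0% of all 27794) and 0 lower (0%), with 1 in each direction at an unadjusted p under 0.05 (39 higher and 90 lower over all regions). The replicate block and the summit level also called 0. The median standard error was 0.63 on the log2 scale, against 0.34 for H3K27ac.

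A single CTCF region of 380 was found only in VPA (0.186% of all regions), in an intron of ROBO1 (chr3:79361717-79362282, 406.0 kb from the start), and 0 only in CTRL (0.326% of all regions). Thus 1 of the 63 genes had such a region, where 0.633% of all genes did. Its summit levels were 13.0, 4.49 and 5.45, and its peaks ranked at percentiles 47.0, 5.92 and 9.91 of their lists. The 100 bases around its summit are given with those of 2 strong sites found in all 6 libraries, with the core motif CCNNNAGNNGGC in capitals on whichever strand it was found.
ROBO1 intron, only in VPA, chr3:79361914-79362013: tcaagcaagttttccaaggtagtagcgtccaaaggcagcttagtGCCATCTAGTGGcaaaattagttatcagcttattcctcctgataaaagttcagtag
EFNA3, downstream, chr1:155091580-155091679: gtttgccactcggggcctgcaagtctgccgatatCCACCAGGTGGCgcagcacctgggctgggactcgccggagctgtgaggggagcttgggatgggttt
SEMA3B, upstream, chr3:50260098-50260197: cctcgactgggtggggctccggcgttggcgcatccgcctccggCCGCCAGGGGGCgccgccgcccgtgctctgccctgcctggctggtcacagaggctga
The middle 20 bases of the ROBO1 window occurred 2 times on the autosomes and those of the EFNA3 and SEMA3B windows once. The EFNA3 site lies inside the H3K27ac region that was found only in VPA. Of the 166 CTCF regions present in all 6 libraries 66 held the core motif in this window (39.8%, against 36.6% of all such regions), and of the 214 present in fewer libraries 36 did (16.8%, against 15.9%). Motif matches are descriptions of letters and were not tested as binding sites.

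Other genes of the pathway were taken from 2 lists. Of 19 coreceptors and further cues, such as NRP1, DCC and NEO1, 0 had more and 0 had fewer H3K27ac peaks without overlap, and the median difference was 0.333 peaks, equal to that over the 63 genes and over all genes. Of 38 intracellular effectors, 4 had more, about the 10.2% of all genes that did, and 0 had fewer (0.147% of all genes). ENAH, a regulator of actin filaments, had 9, 8 and 7 peaks against 17, 12 and 13. ABL2, a tyrosine kinase, had 2, 2 and 1 against 8, 4 and 5. RGS3 had 2, 4 and 4 against 6, 5 and 5, and the kinase ROCK1 had 2 in each CTRL and 3 in each VPA library. CTCF peaks did not separate the groups at any gene of either list.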

How the data were processed

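H3K27ac and CTCF ChIP-seq peak lists of 12 HEK293T libraries were used. The authors aligned paired reads to hg38 with Bowtie2 and called peaks in each library with MACS3 (3.0.0a7 in the submitters' processing notes) at a q-value of 0.05. The deposited lists give each summit's fold enrichment, a ratio over local background, as the authors' caller computed it. They also give the deposited −log10 p-value and −log10 q-value and an integer score made from the latter, as the authors' caller wrote them. Read totals and the use of the input libraries by the caller are not given in the sources used here. Peaks were placed on GENCODE release 44 genes. All 125367 merged regions ended within the hg38 chromosome lengths.

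Peak numbers were compared by exact two-sided permutation tests. Genes were called when all 3 VPA libraries lay above or below all 3 CTRL libraries, and levels were tested with limma (3.58.1, R 4.3.3) with Benjamini-Hochberg adjustment at 0.05. Summit fragments were recovered from fold enrichment and p-value, and came out whole within 0.05 for 100% of peaks. Scripts (Python 3.11.15) were tested on simulated data. Same-numbered H3K27ac libraries had correlated deviations from group means (r = 0.865, 0.585 and 0.591), so the labels' replicate numbers were also used as blocks. Replicates 2 and 3 were as alike across numbers (r = 0.607 and 0.554), so the block mainly set replicate 1 apart. CTCF numbers did not pair. The sequence of 1 region is not reported here. Members, lists and tests were chosen with earlier results of these data known. Named genes were those with regions or non-overlapping counts in 1 treatment, limma-called regions, no H3K27ac peak, or the 5 highest counts. The 21 regions called in 2 fits and other genes named for contrast were chosen after their values were seen. A stricter q, equal list lengths, other windows and overlaps, left-out libraries and replicate blocks were the alternatives.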

Additional observations from a re-analysis of the deposited data

How the results depend on the processing

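With each list cut to the length of the shortest, the difference in H3K27ac peaks turned to -12.7 and that in CTCF peaks to 1.33. SEMA3C turned to -1.33. Under that setting 1 gene had more and 2 had fewer H3K27ac peaks, 0 had more and 0 fewer CTCF peaks, 1 H3K27ac region was VPA-specific and 3 were CTRL-specific, as were 0 and 1 CTCF regions. With the gene body alone, 4 genes had more H3K27ac and 0 had more CTCF peaks, and 4 H3K27ac regions were VPA-specific. The replicate block gave 15 genes with more (16.2% of all genes) and 1 with fewer H3K27ac peaks (0.309% of all genes). It gave 3 genes with more and 5 with fewer CTCF peaks, and 16 higher (6.45% of all regions) and 11 lower H3K27ac regions (8.57% of all). The CTCF replicate numbers did not pair the libraries, since r was 0.34, -0.0451 and 0.477. The recovered summit level gave 20 higher and 25 lower, and 9 and 19 without subtraction of medians, the latter chosen after seeing the data. Covered kilobases, also added afterwards, gave 14 genes with more H3K27ac (26.5% of all genes), and 0 with more (1.11%) and 2 with fewer CTCF (1.64%). No share over all genes or regions is given here for the equal-length, gene-body and CTCF block counts. The shares over all genes in this section are not matched for window length. The cause of these shifts was not tested.

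Leaving out 1 library at a time gave 7 to 21 genes with more H3K27ac peaks, where 12.5% to 19.7% of all genes had more, and 0 to 1 with fewer. For CTCF it gave 1 to 2 genes with more and 1 to 4 with fewer peaks, and differences of -33.8 to 17.8 peaks. It gave 8 to 30 VPA-specific and 0 to 5 CTRL-specific H3K27ac regions, and 1 to 4 and 0 to 5 such CTCF regions, partly because fewer libraries had to agree. Apart from the genes with more H3K27ac peaks, no share over all genes or regions is given here for these counts. The highest counts of genes with more H3K27ac peaks and of VPA-specific H3K27ac regions came without VPA replicate 1. The difference in H3K27ac peaks stayed between 44.5 and 79.2 in these fits. The limma calls on CTCF stayed at 0 in every fit run. Depth in reads is unknown, and 3 against 3 libraries cannot give an exact p below 0.1.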
